A study of Mus musculus with 3 samples.

Results

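Transcript levels of 10 circadian clock genes, Per1, Per2, Per3, Cry1, Cry2, Clock, Nr1d1, Nr1d2, Dbp and Bhlhe40, were examined in cultured adult mouse ventricular cardiomyocytes (ACMs). They were taken by gene symbol from the 56748 genes of the count table, and all 10 were found. ACMs came from hearts of male and female wild-type (WT) mice aged 8 to 10 weeks. They attached to laminin for 3 to 4 h in medium with 5% serum and were then kept without serum, in medium with 0.1% BSA and 10 mM of the contraction inhibitor BDM. For 16 h they received vehicle (0.1% BSA), 10 ng/mL mouse oncostatin M (OSM), or 10 ng/mL human IL-6, both cytokines of the gp130 receptor family. RNA of several samples was pooled before sequencing, so each of the 3 conditions has 1 library and no replicate, and no test across replicates could be made. The values below therefore compare libraries. The sources used here do not give the hour of the day at harvest, and a single time point shows neither the phase nor the amplitude of a rhythm.

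The circadian clock is a transcriptional feedback loop that runs in nearly every cell, cardiomyocytes included, where it times metabolism, ion channel expression and growth. CLOCK pairs with BMAL1 and activates genes through E-box elements, among them the Per, Cry and Nr1d genes and Dbp. PER and CRY proteins accumulate and repress CLOCK and BMAL1. REV-ERBα (Nr1d1) and REV-ERBβ (Nr1d2) form a further loop in which they repress Bmal1 against activation by the ROR receptors, DBP activates genes through D-box elements, and DEC1 (Bhlhe40) represses transcription at E-boxes.

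The OSM library differed from vehicle by more than 2-fold, beyond counting error, for 3 of the 10 genes, where 3.7% of all compared genes were higher and 5.46% lower by that rule. Bhlhe40 was 2.85-fold higher, Clock 2.27-fold lower and Nr1d2 2.22-fold lower. Clock lost its call when a trend with gene length was removed, Clock and Nr1d2 lost theirs if libraries were assumed to vary by a further coefficient of variation of 0.1, and Bhlhe40 at 0.2. The Cry genes, Per1, Per2, Nr1d1 and Dbp had ratios within 1.5-fold of vehicle, and Per3 had a ratio close to 2-fold lower with a wide counting interval. With IL-6 no clock gene passed the same rule.

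The promoters of these genes are shown because the loop acts through short elements in them. RefSeq promoter windows, from 250 bases before to 50 bases after the start on GRCm38.p6, were found for 8 of the 10 genes, 11 windows in all since some genes have several starts, and not for Per2 or Bhlhe40. That build differs from the GRCm39 of the count table, and no position was converted. On both strands, the E-box CACGTG was present in the windows of 8.09% of 27025 genes, its variant CACGTT (the E'-box, which reads AACGTG from the other strand) in 5.44%, and the D-box TTATGTAA or TTACGTAA in 1.23%. No match overlapped another. The 100-base stretches below, 5′ to 3′ on the strand of the gene, hold every match in the clock genes, with the matched letters in capitals.
Cry1: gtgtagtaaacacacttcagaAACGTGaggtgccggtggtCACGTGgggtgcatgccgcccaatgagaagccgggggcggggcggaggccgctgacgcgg
Per1: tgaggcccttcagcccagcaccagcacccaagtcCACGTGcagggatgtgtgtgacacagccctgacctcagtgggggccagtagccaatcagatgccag
Cry2: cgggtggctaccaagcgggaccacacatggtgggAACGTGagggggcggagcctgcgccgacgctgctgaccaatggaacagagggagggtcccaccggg
Nr1d1: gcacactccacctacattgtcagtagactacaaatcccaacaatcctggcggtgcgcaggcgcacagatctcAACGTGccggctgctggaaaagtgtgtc
Per3: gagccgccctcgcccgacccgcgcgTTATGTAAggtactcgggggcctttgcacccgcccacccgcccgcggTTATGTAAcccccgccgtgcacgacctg

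The Cry1 stretch (chr10:85185055-85185154, minus strand) held an E'-box 79 bases and an E-box 60 bases before the start. The Per1 stretch (chr11:69098749-69098848, plus strand) held an E-box 166 bases before it, and the Cry2 stretch (chr2:92434170-92434269, minus strand) an E'-box at the same distance. In Nr1d1 (chr11:98775378-98775477, minus strand) an E'-box lay 28 bases before the start. Per3 (chr4:151044796-151044895, minus strand) held the D-box letters at 205 and again at 158 bases before the start. So 2 of the 8 genes held the E-box, 3 the E'-box and 1 the D-box. TAGGTCA, the core shared by ROR and REV-ERB elements, TGACGTCA, the CREB element, and TTCCNGGAA, a STAT-type element, were in no window of the 8 genes and in 2.97%, 2.03% and 1.35% of genes.

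Clock and Nr1d2, called lower by the 2-fold rule in the OSM library, held none of the searched letters in their windows, which says only that these letters are not there. Dbp held none either, and its interval between OSM and vehicle included no change. Per3 and Cry2, which were lower beyond counting error but not beyond 2-fold, did hold searched letters. The last 100 bases before the starts of Clock and Nr1d2 are printed for comparison with the stretches above.
Clock: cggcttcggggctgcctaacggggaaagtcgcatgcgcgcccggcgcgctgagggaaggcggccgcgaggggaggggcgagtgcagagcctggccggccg
Nr1d2: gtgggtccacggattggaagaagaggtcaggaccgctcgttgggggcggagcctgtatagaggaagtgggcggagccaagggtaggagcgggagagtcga

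The Clock stretch lies at chr5:76304793-76304892 on the minus strand and is 77% G and C. That of Nr1d2, at chr14:18239107-18239206 on the minus strand of GRCm38.p6, is 63% G and C.

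The libraries held 24939980 (vehicle), 26362446 (IL-6) and 30773001 (OSM) counts, and a gene with no count could have been present at up to 0.120, 0.114 and 0.0975 CPM (3 counts). Mitochondrial genes took 17.4%, 16.1% and 13.6% of the counts. Socs3, a feedback inhibitor induced by STAT3, had 670 counts with vehicle, 646 with IL-6 and 18194 with OSM, so its transcript marked the OSM library and not the IL-6 library. Cardiomyocyte markers summed to 4557, 4591 and 5976 fpkm, with all 6 detected. Fibroblast markers summed to between 0.552 and 1.02 fpkm, and endothelial markers to between 5.92 and 6.24. Smooth muscle and pericyte markers summed to between 12.8 and 15.1, of which Acta2 alone gave most, with 12.2, 12.1 and 14.3 fpkm. Macrophage markers summed to 13.4, 14.2 and 39.1 fpkm. Cd68, a lysosomal protein that other cells also make, gave nearly all of that sum, with 12.0, 13.2 and 37.8 fpkm. Csf1r was detected in every library, with 1.28, 1.06 and 1.21 fpkm, and Adgre1 had at most 8 counts. The leukocyte marker Ptprc and the macrophage marker C1qa were at 0 in every library. The part of Cd68-expressing cells in the clock gene values was not tested. In bulk RNA, fewer cells of a type and less RNA per cell cannot be told apart.

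Levels per gene length were taken from the deposited fpkm (fragments scaled by gene length and by 1 constant per library), with the exact Poisson 95% interval of the count. In the vehicle library the order was Nr1d2 (30.7 fpkm), Bhlhe40 (19.9), Nr1d1 (11.6), Cry2 (7.97), Clock (6.83), Cry1 (4.72), Per1 (3.56), Dbp (2.69), Per3 (0.658) and Per2 (0.520). Only the intervals of Per3 and Per2 overlapped among these neighbours. The IL-6 library kept this order down to Dbp, with overlapping intervals for Cry2 and Clock and, at the bottom, for Per2 and Per3. In the OSM library Bhlhe40 came first at 56.9 fpkm, above Nr1d2 at 13.9, and Clock stood at 3.02 fpkm, overlapping Dbp at 3.02. Clock thus ranked 5 of 10 with vehicle and with IL-6, and 8 with OSM.

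**Figure D1:**
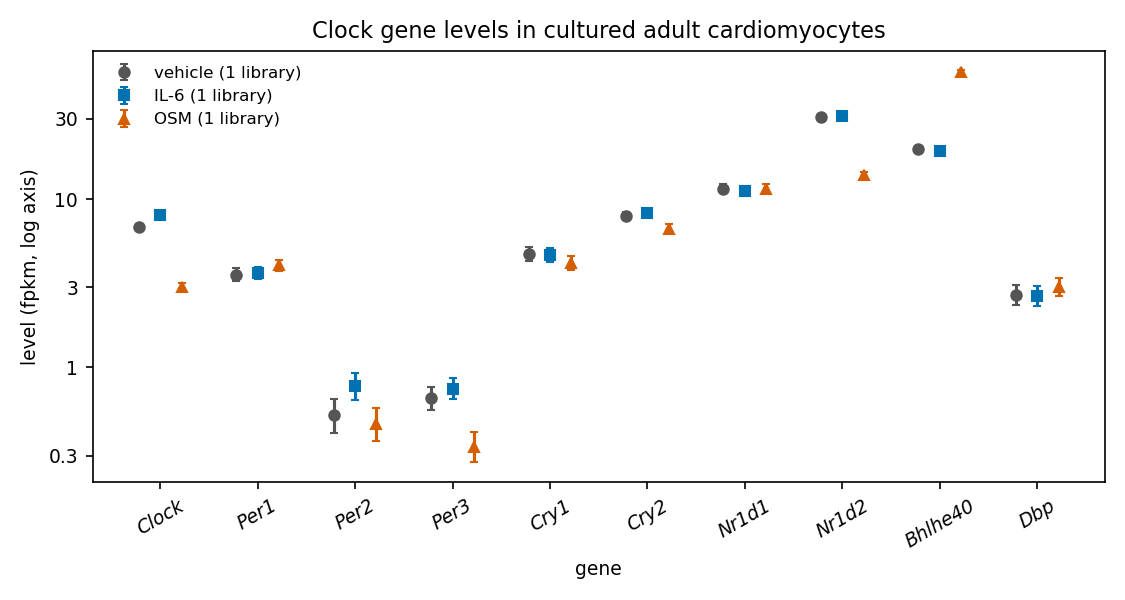
Levels of the 10 clock genes in fpkm (log axis) in the vehicle, IL-6 and OSM libraries, 1 library each. Bars are exact Poisson 95% intervals, which cover counting error only. Bhlhe40 stands highest with OSM at 56.9 fpkm, Clock and Nr1d2 stand lower with OSM than in the other libraries, and the vehicle and IL-6 points lie close together.

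For each pair of libraries, the ratio of counts was scaled by TMM factors, which set the bulk of genes to no change, and given the 95% Clopper-Pearson interval of the counts. Intervals cover counting error only. Genes whose whole interval lay beyond 2-fold were called higher or lower. Between OSM and vehicle, 1 clock gene was called higher and 2 lower, where 3.7% of all 15537 compared genes were called higher and 5.46% lower. The called share, 3 of 10, lay above this background, for genes chosen with results known. These calls rest on counting error alone. By the looser rule that the whole interval lies on one side of no change, 2 clock genes were higher (Per1 and Bhlhe40) and 4 lower (Per3, Cry2, Clock and Nr1d2), against 33.1% and 33.4% of all compared genes. The count of 6 in 10 by the looser rule was thus near the share of all genes. The median log2 ratio was -0.18 over the 10 clock genes and -0.0014 over all compared genes.

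**Figure D2:**
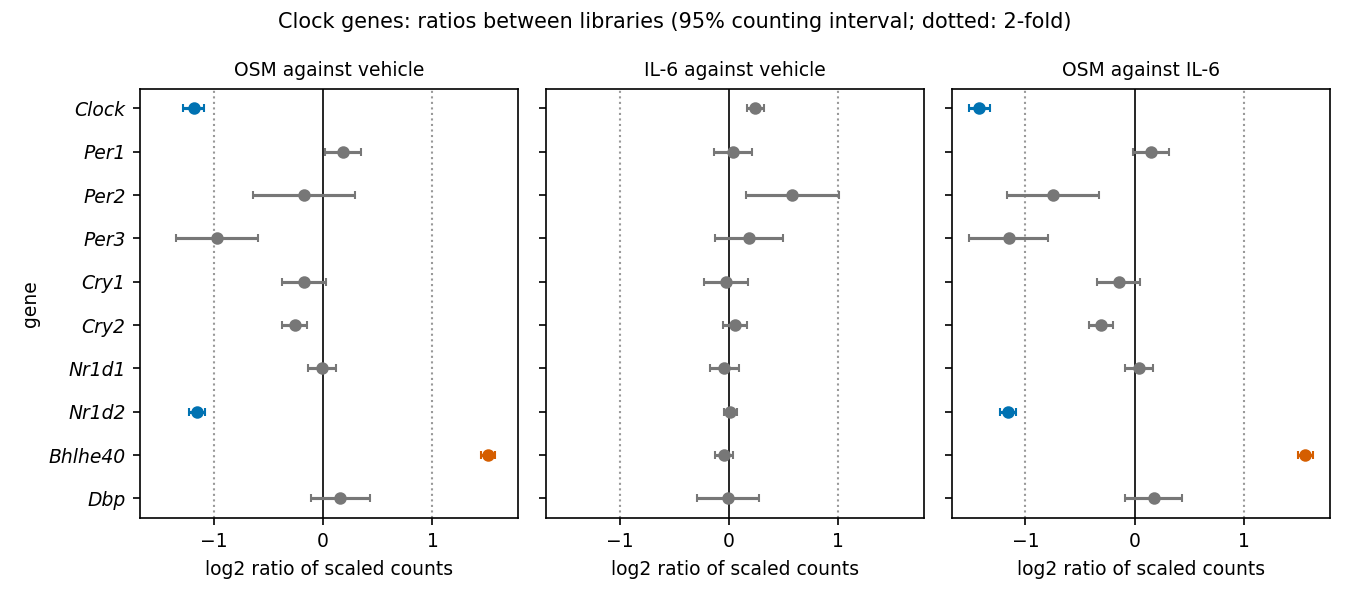
Log2 ratios of scaled counts for the 10 clock genes, from left to right OSM against vehicle, IL-6 against vehicle and OSM against IL-6, with 95% counting intervals. The dotted lines are 2-fold, orange points were called higher and blue points lower. Bhlhe40 is called higher (1.51 and 1.56) and Clock and Nr1d2 lower in both panels with OSM, and no gene is called between IL-6 and vehicle.

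Clock encodes the activator that pairs with BMAL1. The gene (ENSMUSG00000029238 on chr5:76357715-76452639, minus strand, GRCm39) had 2372 counts with vehicle, 3004 with IL-6 and 1238 with OSM. These correspond to 6.83, 8.08 and 3.02 fpkm. The OSM library was the lowest and the IL-6 library the highest, with no overlap of the 3 intervals. The log2 ratio of OSM to vehicle was -1.19 (95% counting interval -1.29 to -1.09), and Clock was called lower. The ratio of IL-6 to vehicle was 0.24 (0.16 to 0.32), beyond counting error but far within 2-fold. Tmem165, on the opposite strand, shares 11.9% of the exon bases of Clock in GENCODE M39 and had 572, 709 and 933 counts. There Clock has 17251 exon bases, against 13727 in the deposited annotation, so the share of the counted bases was not determined. Whether counting used the strand was not stated in the sources used here, so reads of any shared bases cannot be assigned with certainty. With OSM against vehicle Tmem165 had a log2 ratio of 0.46, opposite in sign to that of Clock.

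Gene length moved with the OSM ratios. Spearman's rho between gene length and the log2 ratio, over 9441 protein-coding genes averaging 100 counts or more, was -0.52 for OSM against vehicle, -0.51 for OSM against IL-6 and -0.064 for IL-6 against vehicle. These are correlations across genes that share their libraries, given as descriptions. Clock is among the long genes, at 13727 bases in the deposited annotation, and the trend at this length was -0.64, against its own ratio of -1.19. Relative to the trend, Clock lay at -0.54 (-0.64 to -0.44) and was no longer called. The part of transcript length in the Clock value was not tested further.

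**Figure D3:**
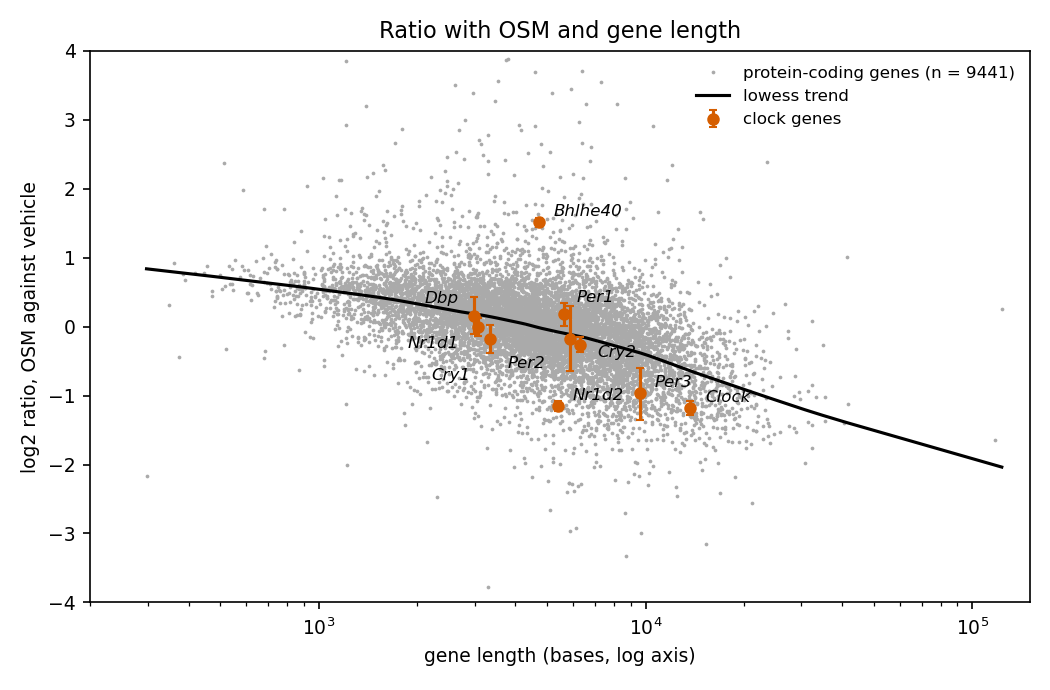
Log2 ratio of OSM to vehicle against gene length in bases (log axis). Grey points are 9441 protein-coding genes averaging 100 counts or more, the line is their lowess trend, and orange points are the 10 clock genes with 95% counting intervals. Clock (13727 bases) and Per3 lie where the trend itself is below 0, whereas Nr1d2 lies well below the trend and Bhlhe40 well above it. The vertical axis ends at 4 in both directions, beyond which some genes lie.

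Nr1d2 encodes REV-ERBβ, a heme-binding nuclear receptor that represses transcription. The gene (ENSMUSG00000021775 on chr14:4230569-4265642, plus strand) had 4207 counts with vehicle, 4544 with IL-6 and 2245 with OSM, or 30.7, 31.0 and 13.9 fpkm. Vehicle and IL-6 had overlapping intervals, and OSM lay below both. The log2 ratio of OSM to vehicle was -1.15 (-1.23 to -1.08) and that of IL-6 to vehicle 0.01 (-0.05 to 0.07). At its length of 5409 bases the trend was -0.08. Nr1d2 lay at -1.07 (-1.15 to -1.0003) relative to it and was still called lower, at the edge of the 2-fold rule.

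Its paralogue Nr1d1, which encodes REV-ERBα, was not called. Nr1d1 (ENSMUSG00000020889 on chr11:98658758-98666159, minus strand) had 900, 936 and 1061 counts, or 11.6, 11.2 and 11.5 fpkm with vehicle, IL-6 and OSM. The intervals of all 3 levels overlapped. The log2 ratio of OSM to vehicle was -0.01 (-0.14 to 0.12), a fold between 0.908 and 1.09. Relative to the length trend it lay at -0.18 (-0.31 to -0.055), lower beyond counting error. The level of Nr1d2 per length was 2.66 times that of Nr1d1 with vehicle (2.47 to 2.86), 2.76 times with IL-6 (2.57 to 2.97) and 1.20 times with OSM (1.12 to 1.30). The 2 REV-ERB transcripts were thus closest to equal levels in the OSM library. The Nr1d1 value is uncertain because of Thra, which encodes thyroid hormone receptor α. On the opposite strand, Thra shares 52.3% of the exon bases of Nr1d1 in GENCODE M39. Thra had 741, 895 and 621 counts, with a log2 ratio of OSM to vehicle of -0.50 (-0.66 to -0.35).

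Bhlhe40 encodes DEC1, a basic helix-loop-helix repressor that binds E-boxes and is also induced by cytokines and low oxygen in many cells. The gene (ENSMUSG00000030103 on chr6:108637590-108643886, plus strand) had 2366 counts with vehicle, 2454 with IL-6 and 7999 with OSM, or 19.9, 19.2 and 56.9 fpkm. The OSM library was far above the other libraries, whose intervals overlapped. Its ratio of OSM to vehicle was 1.51 on the log2 scale (1.44 to 1.58), rank 879 from the highest among the 15537 compared genes. The length trend at this gene was -0.01 and left the call as it was. For IL-6 to vehicle it was -0.05 (-0.13 to 0.04). The lncRNA gene 0610040F04Rik overlaps 6.96% of the Bhlhe40 exon bases in GENCODE M39 and had at most 6 counts in a library. The smaller counted genes that overlap a clock gene, all of them pseudogenes or noncoding genes except Uts2 at Per3, had at most 65 counts.

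Bhlhe41, which encodes the related repressor DEC2, was expressed at a lower level. It had 266 counts with vehicle, 362 with IL-6 and 511 with OSM, or 1.56, 1.99 and 2.55 fpkm. Its log2 ratio with OSM was 0.69 (0.48 to 0.91), beyond counting error and not beyond 2-fold. The level of Bhlhe40 was 12.7 times that of Bhlhe41 with vehicle, 9.68 times with IL-6 and 22.4 times with OSM.

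Of the period genes, whose products form the repressive complex with the CRY proteins, Per1 was the most abundant. Per1 (ENSMUSG00000020893 on chr11:68986043-69000786, plus strand) had 507, 557 and 682 counts with vehicle, IL-6 and OSM, or 3.56, 3.65 and 4.06 fpkm. Its levels overlapped between all libraries. With OSM against vehicle the log2 ratio was 0.18 (0.01 to 0.35), at the edge of counting error, and that of IL-6 to vehicle was 0.04 (-0.14 to 0.21).

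Per3 (ENSMUSG00000028957 on chr4:151088109-151129122, minus strand) had 160 counts with vehicle, 195 with IL-6 and 97 with OSM, or 0.658, 0.749 and 0.338 fpkm. The OSM level lay below both others without overlap. Set against vehicle, OSM gave a log2 ratio of -0.97 (-1.35 to -0.60), so the depth does not settle whether the difference reached 2-fold. Per3 is a long gene of 9608 bases, at which the length trend was -0.38, and it lay at -0.59 (-0.97 to -0.22) relative to the trend.

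Per2 (ENSMUSG00000055866 on chr1:91343704-91387046, minus strand) was the clock gene with the fewest counts, 77 with vehicle, 123 with IL-6 and 81 with OSM, or 0.520, 0.775 and 0.463 fpkm. It was the only period gene with its highest level in the IL-6 library that went beyond counting error, at a log2 ratio to vehicle of 0.58 (0.15 to 1.01). The OSM to vehicle ratio was -0.17 (-0.64 to 0.29). This wide interval includes no change and folds from 0.641 to 1.23.

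The summed level of the period transcripts was 4.74 fpkm with vehicle, 5.17 with IL-6 and 4.86 with OSM. Per1 made up 75.1%, 70.5% and 83.5% of this sum and Per3 13.9%, 14.5% and 6.96%. The level of Per1 was 5.41 times that of Per3 with vehicle (4.52 to 6.50), 4.87 times with IL-6 (4.13 to 5.77) and 12.0 times with OSM (9.69 to 15.0). The make-up of the period transcripts thus differed in the OSM library while their sum was close to that in the other libraries. These shares and ratios were not corrected for the length trend. For OSM against vehicle that trend was -0.096 at Per1 and -0.38 at the longer Per3.

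The cryptochromes, the strongest repressors of CLOCK and BMAL1, gave small ratios. Cry1 (ENSMUSG00000020038 on chr10:84967564-85020928, minus strand) had 399, 420 and 419 counts with vehicle, IL-6 and OSM, or 4.72, 4.64 and 4.20 fpkm. These levels overlapped in all libraries, and the log2 ratio of OSM to vehicle was -0.18 (-0.38 to 0.02). Cry2 (ENSMUSG00000068742 on chr2:92233991-92264388, minus strand) had 1275, 1417 and 1263 counts, or 7.97, 8.27 and 6.69 fpkm. Its OSM level lay below the others without overlap, although the log2 ratio to vehicle was only -0.26 (-0.37 to -0.15). Relative to the length trend, Cry2 lay at -0.12 (-0.23 to -0.002), at the edge of counting error, and Cry1 at -0.32 (-0.52 to -0.12). The ratio of Cry2 to Cry1 was 1.69 with vehicle, 1.78 with IL-6 and 1.59 with OSM, and the intervals of these ratios overlapped.

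Dbp encodes a PAR bZIP activator and is a direct E-box target that is often used as a read-out of CLOCK and BMAL1. The gene (ENSMUSG00000059824 on chr7:45354512-45359627, plus strand) had 204 counts with vehicle, 217 with IL-6 and 270 with OSM, or 2.69, 2.68 and 3.02 fpkm. All levels overlapped. The log2 ratio of OSM to vehicle was 0.16 (-0.11 to 0.43) and that of IL-6 to vehicle -0.01 (-0.29 to 0.27). Sphk2, on the opposite strand, shares 15.5% of the Dbp exon bases in GENCODE M39 and had 765, 690 and 1116 counts.

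Between IL-6 and vehicle, 0 of the 10 clock genes were called higher and 0 lower, where 1.77% and 1.74% of the 15472 compared genes were. By the looser rule, 2 clock genes were higher, Per2 and Clock, and 0 were lower, against 19.6% and 19.1% of all compared genes. The higher count was thus near its share of all genes, and the lower count was below its share. The largest ratio was that of Per2, at 1.49-fold.

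OSM was also set against IL-6. This comparison shares the OSM library with the one against vehicle, so it is no independent repeat of it. Again 1 clock gene was called higher (Bhlhe40) and 2 lower (Clock and Nr1d2), with 4.24% and 5.44% of the 15544 compared genes called. By the looser rule 1 was higher and 5 were lower, with 33.2% of compared genes in either direction. Bhlhe40 was 2.95-fold higher, at a log2 ratio of 1.56 (1.5 to 1.63). Clock was 2.68-fold lower, at -1.42 (-1.52 to -1.33), and Nr1d2 2.23-fold lower, at -1.16 (-1.23 to -1.09). Per3 had a log2 ratio of -1.15 (-1.52 to -0.79) and Per2 of -0.74 (-1.17 to -0.33), neither beyond 2-fold over the whole interval. Cry2 had -0.31 (-0.42 to -0.20), and the intervals of Per1, Cry1, Nr1d1 and Dbp included no change.

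The other transcription factors of the loop were taken as a list of 10 genes. Between OSM and vehicle, 0 were called higher and 2 lower, against 3.7% and 5.46% of all compared genes, with a median log2 ratio of -0.23. BMAL1, the partner of CLOCK, is named Arntl in the files and had 312 counts with vehicle, 259 with IL-6 and 416 with OSM. Its log2 ratio of OSM to vehicle was 0.17 (-0.05 to 0.38), and 0.41 (0.19 to 0.62) relative to the length trend, where Clock was at -0.54. Npas2, a CLOCK paralogue that can also pair with BMAL1, had 39, 55 and 92 counts and a log2 ratio of 0.99 (0.44 to 1.57), not called at these counts. Per length, Npas2 at 0.643 fpkm stayed below Clock at 3.02 fpkm in the OSM library.

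Rora and Arntl2 were the factors called lower. Rora encodes RORα, the activator that opposes the REV-ERBs. It had 1060 counts with vehicle, 1046 with IL-6 and 382 with OSM, and a log2 ratio of OSM to vehicle of -1.72 (-1.89 to -1.55). Rora is 13071 bases long, the length trend there was -0.61, and relative to it the interval ran from -1.29 to -0.94, which ends the call. Arntl2 encodes BMAL2 and had 55, 29 and 5 counts, with a log2 ratio of -3.71 (-5.39 to -2.40). Its level with vehicle was only 0.382 fpkm. Among the remaining factors, the interval of Ciart (0.03) included no change, Tef (-0.50) and Hlf (-0.89) lay below vehicle, and Nfil3, the D-box repressor that opposes DBP, lay above it (0.46), none of them beyond 2-fold.

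The list of kinases, ubiquitin ligase subunits and corepressors that act on clock proteins held 12 genes, of which 0 were called higher and 2 lower between OSM and vehicle, against 3.7% and 5.46% of all compared genes, with a median of -0.33. Prkaa2, the AMPK catalytic subunit that marks CRY proteins for degradation, had 6958, 7556 and 3136 counts with vehicle, IL-6 and OSM. Its log2 ratio was -1.40 (-1.46 to -1.34). Ncor1, a corepressor that REV-ERB receptors recruit, had 5043, 5110 and 2253 counts and a log2 ratio of -1.41 (-1.48 to -1.34). Relative to the length trend Prkaa2 lay at -1.12 (-1.19 to -1.06) and kept its call, and Ncor1 lay at -0.82 (-0.89 to -0.75) and did not. Csnk1d (0.28) and Csnk1e (0.03), the casein kinases that phosphorylate PER proteins, were within 2-fold.

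Of 10 genes known as clock outputs, 0 were called in either direction between OSM and vehicle, against the same shares of all genes, with a median of 0.21. Noct, a rhythmic phosphatase, had 0.98 (0.81 to 1.15), while Wee1, a cell cycle kinase and E-box target, had -0.91 (-1.16 to -0.66) and Klf15, a metabolic regulator in the heart, -0.75 (-0.96 to -0.54). Tcap and Kcnip2, cardiac genes controlled by the clock, had 0.31 and 0.24. Between IL-6 and vehicle none of the genes in these 3 lists was called by the 2-fold rule. By the looser rule, 5 of the 10 other transcription factors were higher and 3 lower. For the 12 kinases, ligase subunits and corepressors these counts were 0 and 3, and for the 10 outputs 1 and 3. The shares of all compared genes were 19.6% higher and 19.1% lower.

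**Figure D4:**
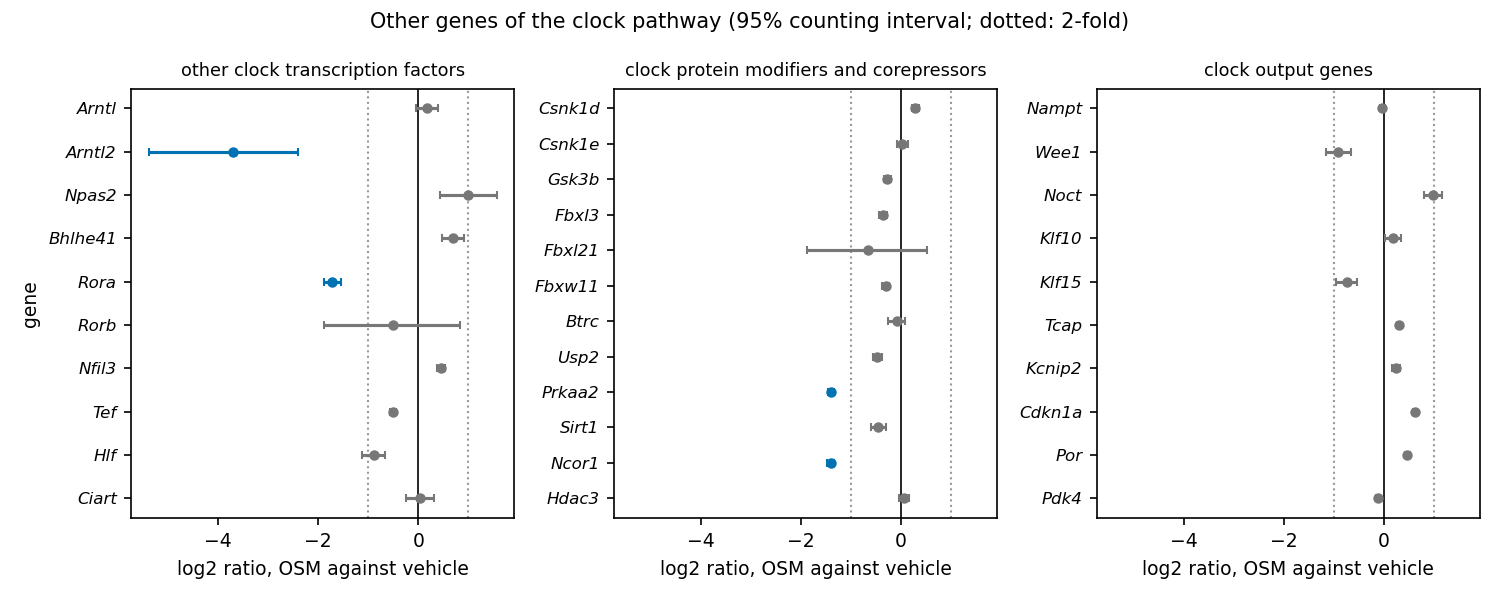
Log2 ratios of OSM to vehicle with 95% counting intervals for the other genes of the clock pathway, in 3 lists. The dotted lines are 2-fold, and blue points were called lower. Arntl2, Rora, Prkaa2 and Ncor1 are the called genes, the remaining intervals reach inside 2-fold, and none is called higher. The length trend was not removed here.

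The genes nearest to Bhlhe40 and to Clock in their pair of log2 ratios to vehicle (OSM and IL-6), by Euclidean distance over 9440 protein-coding genes, are given as a description of 3 libraries. For Bhlhe40 they were Rhoc (distance 0.0214), Map3k8 (0.0411) and Ccn4 (0.0548). Map3k8 rests on 60, 61 and 207 counts. For Clock they were Acox2 (0.0035), Tmem106b (0.0408) and Deptor (0.0454). Acox2 had 1744 counts with vehicle, 2214 with IL-6 and 910 with OSM.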

How the data were processed

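RNAseq libraries of vehicle, IL-6 and OSM-treated ACMs were compared, 1 pooled library per condition (3 libraries). Messenger RNA was selected with poly-T beads, per the labels. The submitters' processing notes name fastp, HISAT2 2.2.1, featureCounts 2.0.6, edgeR 4.0.16 and mm39, and no strand setting was given in the sources used here. The authors deposited whole-number counts per gene without normalization. The authors also deposited FPKM values, which equal each count divided by gene length and by 1 constant per library. All per-sample columns were matched (0 left over).

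From the counts, TMM factors were computed for each pair with edgeR 4.0.16 in R 4.3.3 over genes with at least 10 counts in the pair. Clopper-Pearson and Poisson intervals (95%) came from scipy 1.17.1, and the lowess trend (30% span) from statsmodels 0.14.6. A library at 0 was set to a floor of 3 counts for a bound. The calling procedure was tested on simulated data. Exon overlaps were read from GENCODE M39, whose gene ends differ from the deposited ones for 9 of the 10 genes. Shares of exon bases therefore describe that annotation and not the counted one. Promoters were read from RefSeq.

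The clock genes, the lists and the settings were chosen with earlier results of these data known. Named genes are the 10 clock genes, list genes called in a comparison, Bmal1 and Npas2, genes overlapping a clock gene, the 3 genes nearest to the clock genes with the largest rise and fall, and Socs3. Other list genes were named after their values were seen. Some genes of the lists are not reported here and were left out of the list counts. Alternatives were DESeq2 1.42.0, upper-quartile and library-total scaling, FPKM ratios, no low-count filter, thinning, a prior count, removal of the length trend, assumed biological variation and other call thresholds.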

Additional observations from a re-analysis of the deposited data

How the results depend on the processing

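No paired analysis was possible because each condition has 1 library, and for the same reason no replicate could be left out. Over the other scalings, FPKM ratios, filter, thinning and prior count, 208 of 210 log2 ratios of the clock genes moved by less than counting error. The exceptions were Nr1d2 (-1.24) and Bhlhe40 (1.48) for OSM against IL-6 with library totals. The largest shift was 0.0810, no call by the 2-fold rule changed and none reversed. The looser rule was less stable. With OSM, Per1 left the higher genes against vehicle with library totals. It joined them against IL-6 with upper-quartile scaling and with thinning. Cry1 joined the lower genes with library totals in both OSM comparisons, and with thinning against vehicle. Removing the length trend left 1 clock gene lower, Nr1d2, against vehicle and 1 against IL-6, in place of 2, since Clock dropped out. By the looser rule, the lower clock genes went from 4 to 6 against vehicle, with Cry1 and Nr1d1 added, and from 5 to 7 against IL-6, with the same genes added, and the higher ones against IL-6 from 1 to 2, with Per1 added. Biological variation was not measured. With an assumed coefficient of variation of 0.1, the clock genes called lower were 0 against vehicle and 1 (Clock) against IL-6, and Bhlhe40 was still called. With 0.2 and with 0.4, 0 were called higher and 0 lower in either comparison. Over all genes, OSM against vehicle, the calls fell from 575 higher and 849 lower to 340 and 425 with 0.1, 207 and 250 with 0.2 and 84 and 88 with 0.4. They rose to 1328 and 1868 with a 1.5-fold rule, which adds Per3 to the lower clock genes, and to 1559 and 2049 when the ratio alone had to pass 2-fold. Between IL-6 and vehicle, 0 clock genes were called under every alternative run. The depth limits Per2 and Per3 most, with at most 123 and 195 counts.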

Other observations

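Transcripts of pathways that are known to act on Per1 or Bhlhe40 were read in the same libraries. Of 8 glucocorticoid-responsive genes, 1 was called higher and 0 lower between OSM and vehicle, against 3.7% and 5.46% of all compared genes. Their median log2 ratio was -0.00097. The called gene was the metallothionein gene Mt2, which cytokines and metals also induce. It had 183 counts with vehicle, 255 with IL-6 and 854 with OSM (1.97, 95% counting interval 1.74 to 2.21). Of 6 CREB and serum-responsive genes, 3 were called higher and 0 lower, against 3.7% and 5.46% of all compared genes, with a median of 1.02. Fos (1.48), Egr1 (1.41) and Junb (1.58) rose. Against IL-6 the cyclic AMP-responsive Crem was called higher too (1.26, 1.00 to 1.51), but it was not called against vehicle. Crem had 254 counts with vehicle, 178 with IL-6 and 469 with OSM, so the IL-6 library was the lowest. Nr4a1 (-0.55, -0.72 to -0.38) and Sik1 (-0.49, -0.61 to -0.37), also CREB targets, lay below vehicle beyond counting error and within 2-fold. Of 6 hypoxia-responsive genes, 1 was called higher and 0 lower, against the same shares of all compared genes, and the median was -0.26. The called gene was Ndrg1, with 242, 292 and 2692 counts (3.23, 3.04 to 3.42). Between OSM and IL-6, 2 hypoxia genes were called higher and 0 lower, against 4.24% and 5.44%. The hypoxia gene Car9 had 10 counts with vehicle, 0 with IL-6 and 15 with OSM. At these low counts it was called lower between IL-6 and vehicle, as were 1.74% of all compared genes. The part of these pathways in the Per1 and Bhlhe40 values was not tested.

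Among the cell type markers, Ryr2, the cardiac calcium release channel and the longest gene of its list at 28790 bases, was called lower in the OSM library with 22606, 23555 and 9264 counts (-1.53), and lay at -0.37 relative to the length trend. Cd68, the lysosomal protein listed with the macrophage markers, was called higher (1.65, 1.48 to 1.81). It was the only 1 of the 3 compared macrophage markers to be called, and their median was -0.09.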
